A study of Mus musculus with 1016 samples.

Results

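Replication timing was followed at 8 genes of the nucleolus and of ribosome biogenesis in single cells of mouse preimplantation embryos. The genes, chosen by their positions in GRCm38, were Polr1a, Rrn3, Ubtf, Fbl, Nop56, Nop58, Ncl and Npm1, which are 8 of 20780 protein-coding genes on chromosomes 1 to 19. Relative to the progress of the cells through S phase, Ncl and Nop58 were ahead of the median gene in all 14 groups, Rrn3, Nop56 and Polr1a in 13 each, Npm1 in 11 and Ubtf in 8, whereas Fbl was ahead in 1, the 4-cell stage. Fbl was replicated in 38.1% of 2-cell blastomeres (24 of 63, 95% exact binomial interval 26.1 to 51.2%), where the other genes reached 50.8 to 74.6%, and it had the lowest share of the 8 in every one of the 14 groups. Without the cells of 77 h in the 16-cell group, however, Fbl was not the lowest there and was 6.45 points ahead of the median gene.

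The nucleolus forms around the ribosomal DNA repeats, which RNA polymerase I transcribes into the precursor of the large ribosomal RNAs. Polr1a encodes the catalytic subunit of that polymerase, Rrn3 the factor that brings the polymerase to its promoter, and Ubtf the HMG-box protein that covers active ribosomal DNA. Fbl encodes fibrillarin, the methyltransferase of box C/D small nucleolar ribonucleoproteins, and Nop56 and Nop58 encode core proteins of the same particles. Ncl and Npm1 encode nucleolin and nucleophosmin, abundant nucleolar proteins that act in ribosome assembly. Early embryos carry compact nucleolus precursor bodies, which turn into working nucleoli as ribosomal RNA synthesis resumes.

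Single-cell Repli-seq reads DNA copy number in single cells during S phase, when replicated regions hold more DNA than regions still to be copied. The natural stages used here were zygote (66 cells), 2-cell (63), 4-cell (55), 8-cell (56), 16-cell (40), morula (47) and inner cell mass (ICM, 70), all from (C57BL/6J x CBA) females crossed with DBA/2J males and collected from 20 to 104 h after the hCG injection that triggers ovulation. The other groups were 57 parthenotes, (C57BL/6J x CBA)F1 oocytes activated without sperm by 10 mM strontium for 2 h, 57 zygotes made by in vitro fertilization (IVF) with the parental strains of the natural stages, and isolated pronuclei, 21 maternal of (C57BL/6J x CBA)F1 and 17 paternal of DBA/2J genotype. Embryos of the natural cross were also followed at the 2-cell stage after 3 treatments, namely 0.1 mg/ml of the RNA polymerase II inhibitor α-amanitin from 17 h after hCG (42 cells), 100 μM of the transcription elongation inhibitor DRB from 17 h (67 cells), and zygotic injection at 18 h of 2 μg/μl mRNA for the histone demethylase KDM5B (56 cells). The labels tie no cell to a mother or an embryo, so blastomeres of a group may be sisters.

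Cells were kept when 10 to 90% of their called bins were replicated, a percentage termed the replication score. Those marked as failed in the study's quality table were not removed from the main values. Such cells were most numerous in the zygote group (13 of 66), followed by the 2-cell group (8 of 63). Parthenotes and the 8-cell group held 7 each, and the morula, 16-cell and 4-cell groups 5 each. IVF zygotes and maternal pronuclei held 1 each, and the remaining groups had no such cell. A gene counted as replicated in a cell when at least 0.5 of the called 50 kb bins that it overlaps were replicated, and the share is the percent of cells with the gene replicated. Because a share rises with the progress of the cells through S phase, the lead of a gene is its share minus the mean replication score of the same cells, in percentage points, and its rank is the percentile of that lead among all protein-coding genes, with 100 the earliest. Intervals of shares are exact binomial (Clopper-Pearson) and cover counting error only. Read depth cannot be read from binary states. Each deposited bin had been scaled to its mean within the group, so levels set side by side across groups were normalized separately, and a copy number common to all cells of a group leaves no trace in them. Cells of 72 h in the 8-cell group (11 of 56) and of 77 h in the 16-cell group (9 of 40) stood apart. Their median gene lead was -6.58 and -0.11 points, whereas the other hours of those stages had 4.30 to 35.5 points. The range of shares over the 8 genes is also given without them for both stages, and other values include them unless stated.

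The 8 genes lie on 6 chromosomes in GRCm38: Nop58 at chr1:59684971-59719044 (plus strand), Ncl at chr1:86344719-86359400 (minus), Nop56 at chr2:130274430-130279313 (plus), Polr1a at chr6:71909053-71984935 (plus), Fbl at chr7:28169710-28179269 (plus), Npm1 at chr11:33152287-33163206 (minus), Ubtf at chr11:102304560-102319742 (minus) and Rrn3 at chr16:13780708-13814839 (plus). Each overlaps 1 or 2 bins. Over the gene and 0.3 Mb on either side, GC content ran from 42.6% at Nop58 to 48.7% at Ubtf, and the median of the 8 was 45% beside 44.4% over all protein-coding genes. These windows held 5 protein-coding genes at Npm1 and 24 at Ubtf, with a median of 11.5 for the 8 and 12 for all genes. Fbl, with 47.3% GC and 23 genes in its window, was at the 75.5th and 80.7th percentile of all genes for these measures, and only Ubtf among the 8 had a window richer in both.

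Promoters of 6 of the 8 genes are in the RefSeq table for GRCm38.p6, those of Ncl, Nop56, Nop58, Polr1a, Rrn3 and Ubtf. The following promoters, each 250 bases before to 50 after a transcription start, belong to the genes of these 6 with the smallest and the largest difference in lead between morula and 2-cell embryos, and capitals mark CG dinucleotides. Nop58 (chr1:59684756-59685055, plus strand) has 17 CG, a number that 31.4% of the 32851 listed promoters reach. Ubtf has 6 listed promoters with 6 to 40 CG, of which the richest (chr11:102317238-102317537, minus strand) is shown, and 3.91% of all promoters reach its count. The motif searched was CG, which reads the same on both strands, and a bin of 50 kb does not resolve a promoter.
Nop58: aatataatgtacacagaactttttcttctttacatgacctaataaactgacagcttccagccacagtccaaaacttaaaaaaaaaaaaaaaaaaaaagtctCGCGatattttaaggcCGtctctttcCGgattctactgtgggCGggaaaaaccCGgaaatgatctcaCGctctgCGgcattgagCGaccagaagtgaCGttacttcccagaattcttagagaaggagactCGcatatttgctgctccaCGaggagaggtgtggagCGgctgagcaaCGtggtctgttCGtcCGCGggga
Ubtf: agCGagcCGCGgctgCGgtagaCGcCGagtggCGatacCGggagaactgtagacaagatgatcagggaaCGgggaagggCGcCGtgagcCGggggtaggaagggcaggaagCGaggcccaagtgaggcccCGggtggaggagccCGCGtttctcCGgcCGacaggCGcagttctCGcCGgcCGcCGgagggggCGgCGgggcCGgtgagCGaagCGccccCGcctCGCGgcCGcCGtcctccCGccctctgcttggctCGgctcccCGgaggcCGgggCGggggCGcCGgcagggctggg

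The genes of the RNA polymerase I machinery were replicated in most cells at every natural stage. So was the median gene, from 52.4% of 2-cell blastomeres to 78.7% of morula cells. Ubtf was the lowest of the 3 at all stages but zygote and 4-cell, where Polr1a was. Polr1a was replicated in 38 of 66 zygotes (57.6%), 40 of 63 2-cell (63.5%), 42 of 55 4-cell (76.4%), 41 of 56 8-cell (73.2%), 35 of 40 16-cell (87.5%), 42 of 47 morula (89.4%) and 49 of 70 ICM cells (70%). Rrn3 was replicated in 49 of 66 zygotes (74.2%), 46 of 63 2-cell (73%), 46 of 55 4-cell (83.6%), 41 of 56 8-cell (73.2%), 35 of 40 16-cell (87.5%), 43 of 47 morula (91.5%) and 54 of 69 ICM cells (78.3%). Ubtf was replicated in 40 of 66 zygotes (60.6%), 32 of 63 2-cell (50.8%), 44 of 54 4-cell (81.5%), 38 of 56 8-cell (67.9%), 30 of 40 16-cell (75%), 39 of 47 morula (83%) and 42 of 70 ICM cells (60%). Rrn3 was thus at 73% or more at every stage, whereas Polr1a and Ubtf were near the median gene in zygotes, where that gene was replicated in 59.1% of cells.

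**Figure D1:**
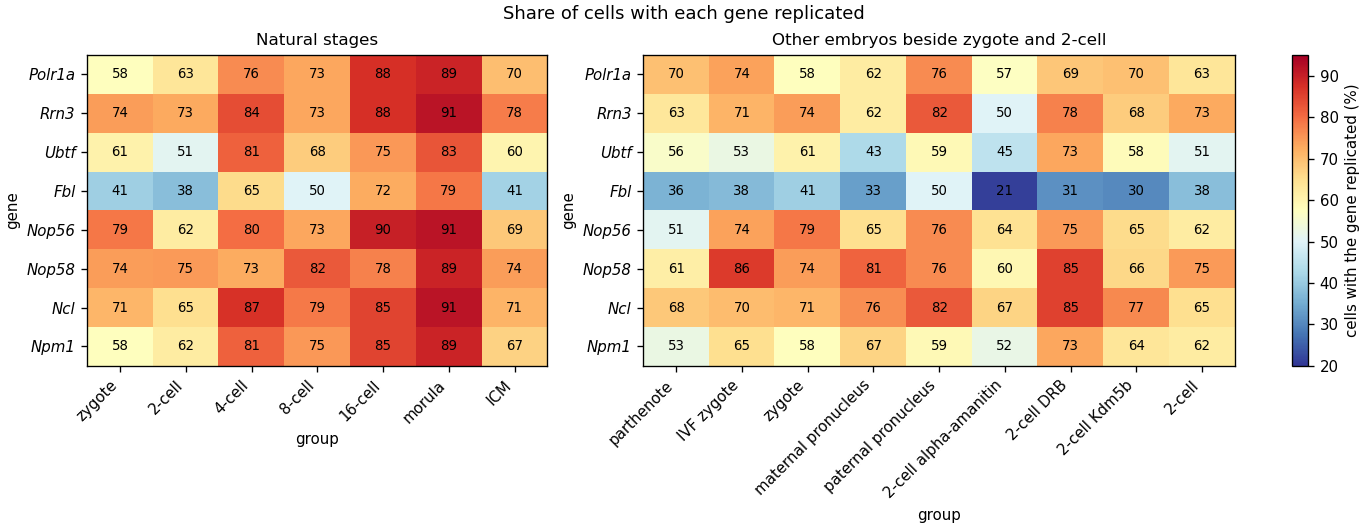
Share of cells with each gene replicated, in percent, for the 8 genes (rows) and the groups (columns), with the natural stages at left and the other embryos beside zygote and 2-cell at right. Fbl holds the lowest share in every column, from 21.4% (2-cell with α-amanitin) to 78.7% (morula).

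The 3 genes of box C/D ribonucleoproteins differed widely among themselves. Fbl was replicated in 27 of 66 zygotes (40.9%), 24 of 63 2-cell (38.1%), 36 of 55 4-cell (65.5%), 28 of 56 8-cell (50%), 29 of 40 16-cell (72.5%), 37 of 47 morula (78.7%) and 29 of 70 ICM cells (41.4%). Nop56 was replicated in 52 of 66 zygotes (78.8%), 39 of 63 2-cell (61.9%), 44 of 55 4-cell (80%), 41 of 56 8-cell (73.2%), 36 of 40 16-cell (90%), 43 of 47 morula (91.5%) and 48 of 70 ICM cells (68.6%). Nop58 was replicated in 49 of 66 zygotes (74.2%), 47 of 63 2-cell (74.6%), 40 of 55 4-cell (72.7%), 46 of 56 8-cell (82.1%), 31 of 40 16-cell (77.5%), 42 of 47 morula (89.4%) and 52 of 70 ICM cells (74.3%). The intervals of Fbl and Nop58 did not overlap in zygotes (29 to 53.7% against 62 to 84.2%), 2-cell (26.1 to 51.2% against 62.1 to 84.7%), 8-cell (36.3 to 63.7% against 69.6 to 91.1%) or ICM cells (29.8 to 53.8% against 62.4 to 84%), and overlapped at the other 3 stages.

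The genes of both nucleolar assembly proteins were replicated in most cells, as was the median gene. In zygotes Npm1 was below the median gene, which was replicated in 59.1% of cells. Ncl was replicated in 47 of 66 zygotes (71.2%), 41 of 63 2-cell (65.1%), 48 of 55 4-cell (87.3%), 44 of 56 8-cell (78.6%), 34 of 40 16-cell (85%), 43 of 47 morula (91.5%) and 50 of 70 ICM cells (71.4%). Npm1 was replicated in 38 of 66 zygotes (57.6%), 39 of 63 2-cell (61.9%), 44 of 54 4-cell (81.5%), 42 of 56 8-cell (75%), 34 of 40 16-cell (85%), 42 of 47 morula (89.4%) and 47 of 70 ICM cells (67.1%). Neighbours in the order of the 8 genes had overlapping intervals at every stage, for example Nop58 (74.6%, 62.1 to 84.7%) and Rrn3 (73%, 60.3 to 83.4%) at the top of the 2-cell stage. Without the 72 h cells, 8-cell shares ran from 57.8% at Fbl to 84.4% at Npm1 and Nop58, and without the 77 h cells, 16-cell shares ran from 87.1% at Nop58 to 100% at Ncl and Nop56, with Fbl at 90.3%. Fbl was therefore the lowest of the 8 in the 16-cell group only with the 77 h cells, where it was replicated in 1 of 9 cells (11.1%).

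Outside the natural stages, Fbl also had the lowest share in each group. Polr1a was replicated in 69.6% of parthenotes, 73.7% of IVF zygotes, 61.9% of maternal and 76.5% of paternal pronuclei, and in 57.1% of α-amanitin, 68.7% of DRB and 69.6% of Kdm5b 2-cell cells. For Rrn3 the shares were 63.2% in parthenotes, 71.4% in IVF zygotes, 61.9% in maternal and 82.4% in paternal pronuclei, 50% with α-amanitin, 77.6% with DRB and 67.9% with Kdm5b. For Ubtf the shares were 56.1% in parthenotes, 52.6% in IVF zygotes, 42.9% in maternal and 58.8% in paternal pronuclei, 45.2% with α-amanitin, 73.1% with DRB and 58.2% with Kdm5b. Rrn3 and Ubtf were thus replicated in 50% or fewer of the α-amanitin cells, where the median gene was replicated in 50%. Fbl was replicated in 36.4% of parthenotes, 37.5% of IVF zygotes, 33.3% of maternal and 50% of paternal pronuclei, and in 21.4% of α-amanitin, 31.3% of DRB and 30.4% of Kdm5b 2-cell cells. For Nop56 the shares were 50.9% in parthenotes, 73.7% in IVF zygotes, 65% in maternal and 76.5% in paternal pronuclei, 64.3% with α-amanitin, 74.6% with DRB and 65.5% with Kdm5b. For Nop58 the shares were 61.4% in parthenotes, 86% in IVF zygotes, 81% in maternal and 76.5% in paternal pronuclei, 59.5% with α-amanitin, 85.1% with DRB and 66.1% with Kdm5b. Among the 3 box C/D genes, Nop58 exceeded Nop56 in parthenotes, IVF zygotes, maternal pronuclei, DRB and Kdm5b cells, equalled it in paternal pronuclei and was below it with α-amanitin, with overlapping intervals in each. Ncl was replicated in 68.4% of parthenotes, 70.2% of IVF zygotes, 76.2% of maternal and 82.4% of paternal pronuclei, and in 66.7% of α-amanitin, 85.1% of DRB and 76.8% of Kdm5b 2-cell cells. For Npm1 the shares were 52.6% in parthenotes, 64.9% in IVF zygotes, 66.7% in maternal and 58.8% in paternal pronuclei, 52.4% with α-amanitin, 73.1% with DRB and 63.6% with Kdm5b. Ncl exceeded Npm1 in all 7 of these groups.

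Ranks set these shares beside all protein-coding genes. Ncl and Nop58 were above the median gene in all 14 groups, with median ranks of 90.8 and 87.5. Rrn3 (median rank 90.7) was above it in 13 groups and level with it in α-amanitin-treated embryos. Nop56 (median rank 82.6) and Polr1a (81) were above it in 13 groups each, and Npm1 (66.7) in 11. Ubtf was above in 8 groups, level in paternal pronuclei and below in 5, with a median rank of 54, its highest rank in 4-cell cells (90.2) and its lowest in maternal pronuclei (22.1). Fbl had a median rank of 19.9, with 8.10 in α-amanitin-treated 2-cell embryos and 64.3 in 4-cell cells, and was above the median gene in 4-cell cells, level with it in 16-cell and morula cells and below it in the other 11 groups. In 16-cell cells without those of 77 h, Fbl was 6.45 points above the median gene. Over the 7 natural stages the ranks of Rrn3 stayed between 89.8 and 96.9, and those of Fbl between 12.6 and 64.3.

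**Figure D2:**
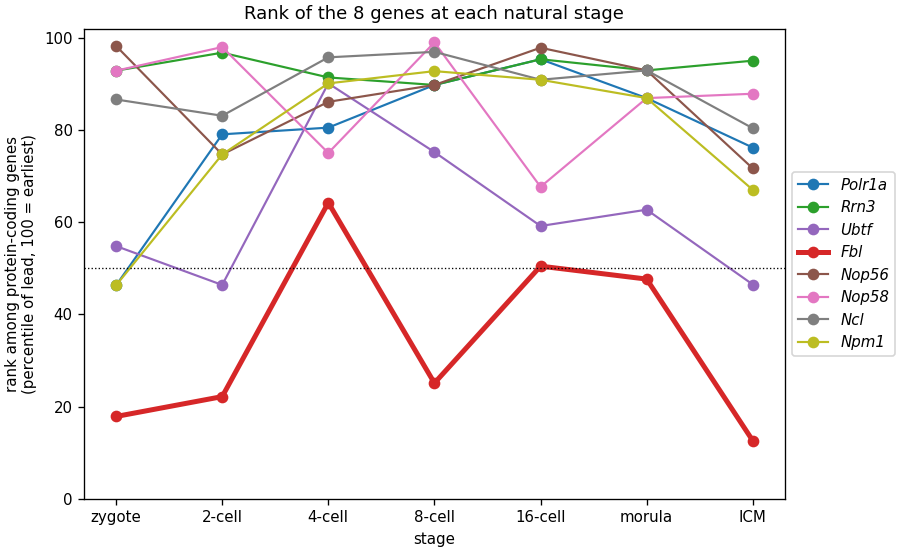
Rank of the 8 genes (percentile of lead among protein-coding genes, 100 the earliest) at each natural stage from zygote to ICM, with a dotted line at rank 50. Fbl (thick line) is at 22.2 in 2-cell and 64.3 in 4-cell cells, and Rrn3 stays at 89.8 or above.

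Single collection hours were examined in the same way. Among 56 combinations of group and hour with 5 or more cells, Fbl was below the median gene in 39 and above it in 8, and was level with it in the rest. Ncl was above in 48 and below in 4, Nop58 above in 46 and below in 4, and Rrn3 above in 46 and below in 6. Polr1a was above in 43 and below in 5, Nop56 above in 41 and below in 6, and Npm1 above in 34 and below in 10. Ubtf was the most even, above in 30 and below in 18. The hours of a group share no cells but were scaled together.

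Fbl was also low beside genes in windows of like base composition. Of the 1756 protein-coding genes whose window GC content was within 0.5 percentage points of that of Fbl, those with a lower lead made up 6.44% in zygotes, 8.43% in 2-cell, 36% in 4-cell, 5.75% in 8-cell, 27.3% in 16-cell, 18.9% in morula and 3.47% in ICM cells. In treated 2-cell embryos the figures were 2.11% with α-amanitin, 2.39% with DRB and 3.76% with Kdm5b. These genes are not independent of each other, since neighbours share bins.

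Along S phase, the distance between Fbl and the others was not the same throughout. In zygotes and 2-cell blastomeres with a score of 10 to 35%, Fbl was replicated in 4 of 22 cells (18.2%) and the median gene in 27.3%, and Nop58 was the one gene of the 8 whose interval lay above that value, with 14 of 22 cells (63.6%, 40.7 to 82.8%). With a score of 35 to 65%, Fbl was replicated in 30 of 78 cells (38.5%, 27.7 to 50.2%), whereas Ncl and Rrn3 were each replicated in 57 of 78 (73.1%, 61.8 to 82.5%). With a score of 65 to 90%, Fbl was still unreplicated in 12 of 29 cells (17 replicated, 58.6%, 38.9 to 76.5%), and Nop56 and Rrn3 were replicated in 28 of 29 (96.6%).

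With the 4-cell to morula stages pooled, the 8 genes were above the median gene already in cells with a score of 10 to 35%, from 27 of 51 cells at Polr1a (52.9%) to 38 of 51 at Ncl (74.5%), where the median gene was replicated in 39.2%. Fbl was among them with 29 of 51 cells (56.9%, 42.2 to 70.7%), of which 18 were 4-cell blastomeres. It was replicated in 18 of 22 4-cell (81.8%), 5 of 15 8-cell (33.3%), 2 of 7 16-cell (28.6%) and 4 of 7 morula cells (57.1%) of this band, and was level with the median gene in the 8-cell and 16-cell cells. In cells with a score of 65 to 90%, however, Fbl was again the lowest, with 50 of 60 cells (83.3%, 71.5 to 91.7%), while Ncl was replicated in 60 of 60 and the median gene in 90%. The bands of score hold cells of several stages and hours, so these shares are descriptions.

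**Figure D3:**
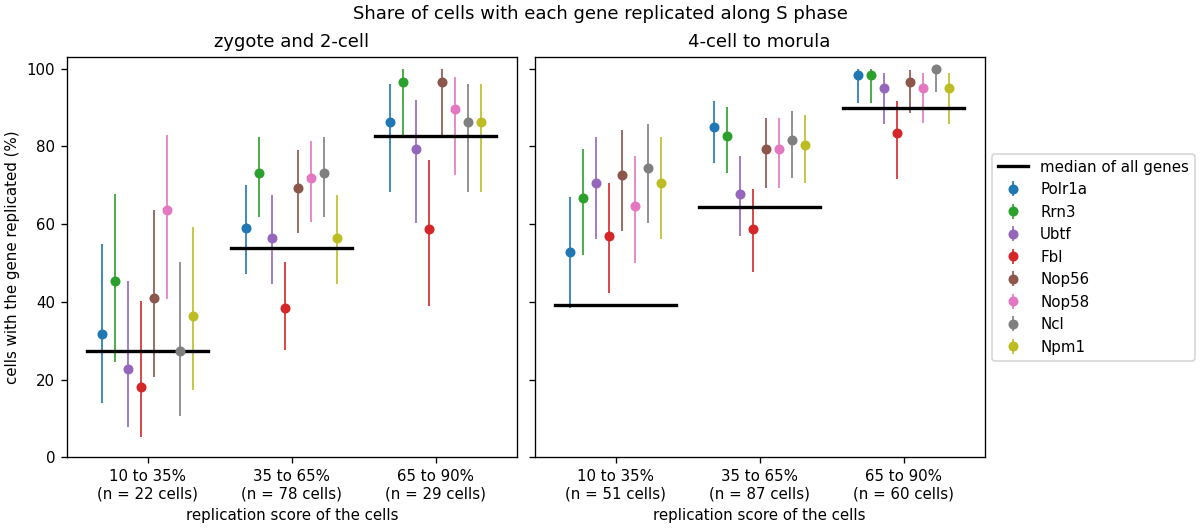
Share of cells with each gene replicated (points, with 95% exact binomial intervals) in 3 bands of replication score, for zygotes and 2-cell blastomeres at left and 4-cell to morula cells at right, with black bars at the median of all protein-coding genes. Fbl is at 38.5% in the middle band at left and at 83.3% in the last band at right.

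The 8 genes were also counted cell by cell. All 8 genes were called in 395 cells of the natural stages, of which 130 (32.9%) had all 8 replicated and 8 (2.03%) had none. Cells with all 8 replicated made up 13.6% of zygotes, 9.52% of 2-cell, 35.2% of 4-cell, 33.9% of 8-cell, 65% of 16-cell, 68.1% of morula and 27.5% of ICM cells. The share of the median gene also differed between stages. It was 59.1% in zygotes, 52.4% in 2-cell, 54.5% in 4-cell, 60.7% in 8-cell, 72.5% in 16-cell, 78.7% in morula and 61.4% in ICM cells. In 60 cells exactly 7 were replicated, and in 30 of these the missing gene was Fbl. None of 42 α-amanitin-treated cells had all 8 replicated, which allows a share of up to about 7.14%. That limit is 3 divided by the number of cells, an approximation and not an exact binomial interval.

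The state of the gene was shared with its surroundings. Shares of the single bins within 0.3 Mb of a gene differed by a median over groups of 7.21 points at Ncl to 15.3 points at Polr1a, and in the median group 73.9% (Polr1a) to 84.6% (Nop58) of cells had a single state over the whole window. At Polr1a the side of higher coordinates was above the side of lower coordinates in none of the 14 groups. The deposited states were smoothed over 15 bins, or 750 kb, so bins of a window are not separate measurements.

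Farther out, bins with a lead below 0 lay within 2 Mb of 5 of the 8 genes, Fbl among them. The median lead of all bins was 2.37 points, so such bins are common. Averaged over the 7 natural stages, bins at Fbl had a lead of 3.60 points, while bins at the other genes had leads of 16.7 points (Ubtf) to 28.5 points (Rrn3). Of all bins, 49.7% were below the value at Fbl, 77.4% below that at Ubtf and 93.5% below that at Rrn3. Averaged in this way, Fbl was near the middle of all bins, but its lead differed in sign between stages. It was -13.4 points in zygotes, -11.2 in 2-cell and -13.7 in ICM cells, below the mean score of the same cells. In 4-cell, 8-cell, 16-cell and morula cells it was 24.6, 0.93, 17.3 and 20.7 points. Towards lower coordinates the lead passed below 0 beyond 800 kb from Fbl and reached -32.3 points at 1900 kb, and towards higher coordinates it stayed above 0 for the 2 Mb examined. The window of Fbl holds 23 protein-coding genes. Its lower side has the zinc finger genes Zfp607a, Zfp974, Zfp780b and Zfp850, together with the proteasome gene Psmc4. Its higher side has Zfp36 and the ribosomal protein gene Rps16. Supt5 and Paf1, which encode elongation factors of RNA polymerase II, are also on that side. All these genes lie nearer to Fbl than the 800 kb beyond which the lead passed below 0. Polr1a had the lowest value of the 8, -37.8 points at 2000 kb towards lower coordinates, and Npm1 reached -13.6, Rrn3 -10.03 and Nop58 -5.39 points. Ncl, Nop56 and Ubtf had no called bin below 0 within 2 Mb. This extent was chosen after the values at Fbl were seen.

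**Figure D4:**
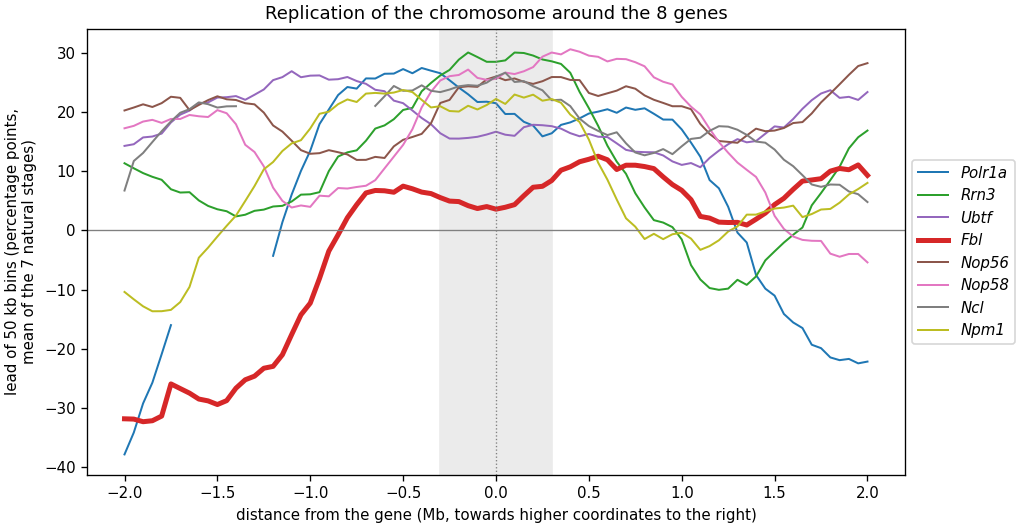
Lead of 50 kb bins (percentage points, mean of the 7 natural stages) by distance from each gene in Mb, with the 0.3 Mb windows shaded and gaps where no state was called. The Fbl line (thick) stands at 3.60 points at the gene and reaches -32.3 points 1900 kb towards lower coordinates.

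Across the 397 cells of the natural stages, pairs of the 8 genes were in the same state in 59.4% (Fbl and Nop58) to 79.3% (Ncl and Nop58) of cells, with a median of 72.5% over the 28 pairs. Pairs with Fbl had 59.4 to 70.7%, highest with Ubtf, and pairs without it 69.4 to 79.3%. The gene on another chromosome most often in the same state was Cage1 for Ncl (81.3%), Shisal1 for Fbl (75.3%), Bcar1 for Nop56 (81.6%), Cd302 for Nop58 (80.1%), 2900011O08Rik for Polr1a (79.5%) and Dr1 for Rrn3 (81.6%). Mpv17l was named for Npm1 (76.5%) and Slc25a17 for Ubtf (78.3%), where 2 and 6 genes were tied. The median gene was in the same state as these 8 in 62.7% (Fbl) to 67.7% (Polr1a) of cells. All pairs share the progress of the same cells through S phase, so these values are descriptions.

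Morula cells were compared with 2-cell embryos to follow the genes over the stages before blastocyst formation. All 8 genes had a larger lead in the morula, as did 86.1% of 19841 genes. The median share of the other 7 genes exceeded that of Fbl by 10.6 points in the morula and 25.4 points in 2-cell blastomeres. Fbl was replicated in 37 of 47 morula cells (78.7%, 64.3 to 89.3%) and in 24 of 63 2-cell blastomeres (38.1%, 26.1 to 51.2%), a lead 32 points greater in the morula and at the 91.8th percentile of all genes. Ubtf was replicated in 83% of morula cells and 50.8% of 2-cell blastomeres, a difference in lead of 23.6 points, and Nop56 in 91.5% and 61.9%, a difference of 21 points. The smallest differences were at Nop58 (89.4% in the morula and 74.6% in 2-cell blastomeres, 6.13 points) and Rrn3 (91.5% and 73%, 9.84 points), the earliest pair of the 2-cell stage.

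A group of cells is 1 pooled sample here, so these stage comparisons have no test, and a difference of 20 points or more is counted. Of the 8 genes, 3 were earlier by 20 points or more in the morula, where 38.1% of 19841 genes were, and none was later, where 4.44% of all genes were. The median difference of the 8 was 18.3 points and that of all genes 16.6 points. Without the 2-cell cells of 39 h, 1 gene (Fbl, 27.1 points) passed 20 points, and without those of 40 h, 5 did.

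ICM cells had smaller leads than morula cells at all 8 genes, where 19.7% of all genes had a larger lead in the ICM. Fbl was again the farthest apart, replicated in 29 of 70 ICM cells (41.4%, 29.8 to 53.8%) and 37 of 47 morula cells (78.7%, 64.3 to 89.3%), a difference in lead of -34.4 points at percentile 1.82 of all genes. Ubtf differed by -20.1 points (60% of ICM cells and 83% of morula cells), Nop56 by -20.1 points (68.6% and 91.5%) and Rrn3, the least, by -10.5 points (78.3% and 91.5%). Of the 8 genes, 3 were later by 20 points or more in the ICM, beside 27.8% of 19843 genes, and none was earlier by as much, beside 2.59%. The median difference was -18.3 points for the 8 genes and -13.1 for all. ICM cells of 96 to 100 h alone gave a median of -11.5 points, with Fbl at -29.8, Npm1 at -25.3 and Nop56 at -9.27 points, and the later ICM cells alone, collected up to 104 h, gave -20.8 points with Nop56 at -29.7 and Npm1 at -14.1.

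**Figure D5:**
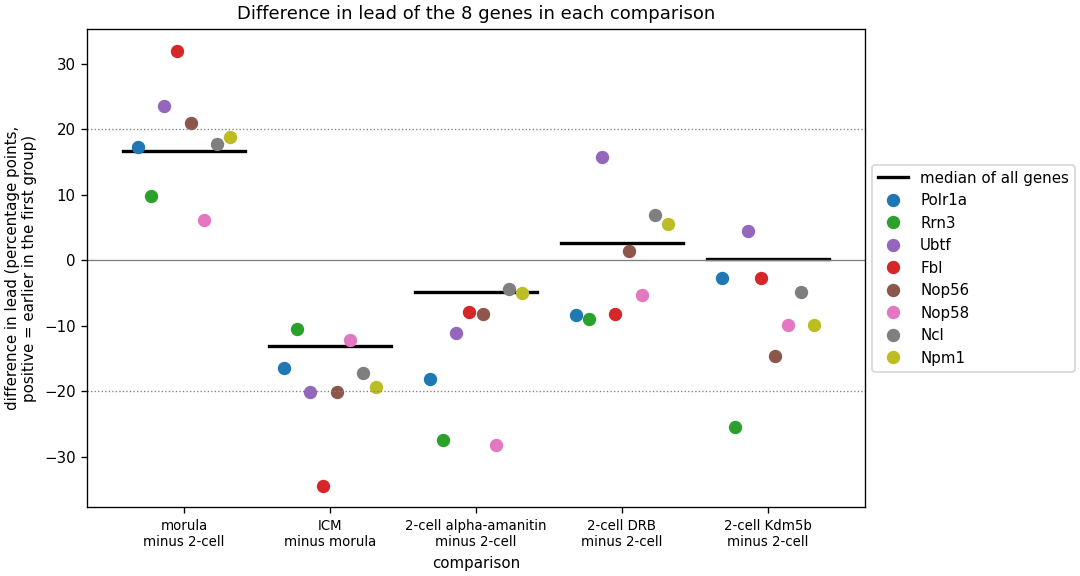
Difference in lead (percentage points, positive where the first-named group was earlier) of the 8 genes in 5 comparisons of pooled cells, with black bars at the median of all protein-coding genes and dotted lines at 20 points either way. Fbl is at 32 for morula minus 2-cell and at -34.4 for ICM minus morula, and all 8 genes are below 0 for 2-cell α-amanitin minus 2-cell. In the α-amanitin comparison 35.3% of all genes are above 0.

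Treated 2-cell embryos were set beside untreated ones at the collection hours that both groups have, to see whether the genes depend on transcription or on H3K4 methylation. With α-amanitin (26 cells against 43 untreated, at 35, 37, 38 and 39 h), all 8 genes had a smaller lead. Of all genes, 35.3% had a larger lead in the treated cells. Nop58 was replicated in 15 of 26 α-amanitin-treated cells (57.7%, 36.9 to 76.6%) and 35 of 43 untreated cells (81.4%, 66.6 to 91.6%), a difference in lead of -28.3 points at percentile 3.48 of all genes. Rrn3 was replicated in 14 of 26 treated (53.8%, 33.4 to 73.4%) and 33 of 43 untreated cells (76.7%, 61.4 to 88.2%), a difference of -27.5 points at percentile 4. Polr1a followed with -18.2 points (53.8% of treated and 67.4% of untreated cells), while Ncl differed least, by -4.33 points (65.4% and 65.1%). The intervals of treated and untreated cells overlapped at each of the 8 genes.

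Of the 8 genes, 2 were later by 20 points or more with α-amanitin, beside 10.9% of 19943 genes, and none was earlier by as much, beside 2.89%. The median difference of the 8 was -9.65 points and that of all genes -4.87. These values rest on few cells per hour. Without the cells of 38 h (11 treated and 7 untreated), the median of the 8 turned to 3.73 points, Nop58 moved to -16 and Rrn3 to -43.8, and without those of 39 h the median was -20.03, Nop58 was at -35.9 and Rrn3 at -12. With all collection hours Nop58 was at -16.7 and Rrn3 at -24.7 points.

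With DRB (52 cells against 49 untreated, at 35 h and 37 to 40 h) the 8 genes divided, 4 with a larger and 4 with a smaller lead, where 58.5% of all genes had a larger lead. Ubtf stood at one end, replicated in 38 of 52 DRB-treated cells (73.1%, 59 to 84.4%) and 24 of 49 untreated cells (49%, 34.4 to 63.7%), a difference in lead of 15.8 points at the 89.9th percentile of all genes. Rrn3 stood at the other, with 40 of 52 DRB-treated (76.9%) and 38 of 49 untreated cells (77.6%), a difference of -8.92 points. None of the 8 was earlier by 20 points or more, beside 4.79% of 19954 genes, and none was later by as much, beside 1.78%. The median of the 8 was -1.96 points and that of all genes 2.58, and leaving out the cells of 37 h or 38 h, or taking all collection hours, gave a median of the 8 of 0.37, 1.56 and 1.37 points. Ubtf was at 29.6 points without the cells of 35 h and 3.25 points without those of 37 h.

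In Kdm5b-injected embryos (35 cells against 28 untreated, at 37 to 40 h), 7 of the 8 genes had a smaller lead and Ubtf a larger one. Of all genes, 50.7% had a larger lead with Kdm5b. Rrn3 was replicated in 21 of 35 Kdm5b cells (60%, 42.1 to 76.1%) and 24 of 28 untreated cells (85.7%, 67.3 to 96%), a difference in lead of -25.5 points at percentile 2.45 of all genes. Ubtf was replicated in 15 of 34 Kdm5b (44.1%) and 11 of 28 untreated cells (39.3%), a difference of 4.53 points. Rrn3 alone was later by 20 points or more, beside 5.54% of 19937 genes, and none was earlier by as much, beside 5.92%. The median of the 8 was -7.32 points and that of all genes 0.18. With all collection hours the difference at Rrn3 was -9.41 points and the median of the 8 was -1.74.

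The 3 comparisons of treated embryos share untreated cells, so their values cannot be read as repeats of each other. At Rrn3 they were -27.5 points with α-amanitin, -8.92 with DRB and -25.5 with Kdm5b, at Nop58 -28.3, -5.31 and -9.82, and at Ubtf -11.1, 15.8 and 4.53. Fbl, the latest gene of the 8, was replicated in 7 of 26 treated cells (26.9%) against 13 of 43 untreated cells (30.2%) for α-amanitin, 17 of 52 (32.7%) against 16 of 49 untreated (32.7%) for DRB, and 9 of 35 (25.7%) against 8 of 28 untreated (28.6%) for Kdm5b.

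Other ribosome biogenesis genes gave a frame for the 8. Of 56 further genes listed (RNA polymerase I factors, small nucleolar ribonucleoprotein proteins, processing and assembly factors), 53 matched the annotation, and 73 ribosomal protein genes were added. In the morula against 2-cell embryos, 23 of the 53 (43.4%) were earlier by 20 points or more and none later (median 18.8 points), as were 43 of the 73 ribosomal protein genes (58.9%, median 22), beside 38.1% of all genes. The ends were Polr1c, a subunit of RNA polymerases I and III (80.9% of morula cells and 30.6% of 2-cell blastomeres, 41.4 points), the assembly factor gene Mrto4 (78.7% and 31.7%, 38.3 points), the processome gene Utp15 (66% and 60.3%, -2.99 points) and Naf1, for assembly of H/ACA particles (44.7% and 48.4%, -12.6 points). In the ICM against the morula, 18 of the 53 (34%) were later by 20 points or more and none earlier (median -18), as were 33 of the 73 (45.2%, median -18.7), beside 27.8% of all genes, and the ends were Naf1 (57.1% and 44.7%, 15.3 points), Utp15 (71.4% and 66%, 8.32), Nop9 (49.3% and 83%, -30.5) and Bop1 (51.4% and 85.1%, -30.8).

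The same lists were examined in treated embryos. With α-amanitin, 6 of the 53 genes (11.3%) were later by 20 points or more and none earlier (median -6.65 points), as were 11 of the 73 ribosomal protein genes (15.1%, median -5.94), beside 10.9% of all genes. The ends were Brix1 (76.9% of treated and 58.1% of untreated cells, 14.2 points), the rRNA methyltransferase gene Nop2 (53.8% and 37.2%, 12), Nolc1 (46.2% and 67.4%, -25.9) and Taf1c, a subunit of the RNA polymerase I selectivity factor (19.2% and 41.9%, -27.2). With DRB, 1 of the 53 was earlier and 1 later by 20 points or more (median 5.24), and 8 and 3 of the 73 (median 3.20), beside 4.79% and 1.78% of all genes, with Nop16 (25.9 points), Urb1 (19.8), Znhit6 (-17.6) and Surf6 (-22.5) at the ends. With Kdm5b, 3 of the 53 were earlier and 3 later (median 0.18), and 7 and 2 of the 73 (median 0.89), beside 5.92% and 5.54% of all genes. The ends were Mybbp1a (26.8), Nop2 (23), Ebna1bp2 (-25.5) and Znhit6, for assembly of box C/D particles, which was replicated in 15 of 35 Kdm5b cells (42.9%) and 23 of 26 untreated cells (88.5%), a difference of -44.8 points.

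Parthenotes, IVF zygotes and zygotes each gave 1 sample and each pronucleus another, so the lead could be tested per sample with limma across all genes and Benjamini-Hochberg adjustment. For these tests the lead of a sample was the share of the gene's called bins that were replicated minus its replication score. The labels name no mothers, and the groups had been scaled separately before deposit, so p-values cover the spread between these samples only. None of the 8 genes passed an adjusted p of 0.05 in any of the 3 comparisons. On simulated data the same fits recovered few or none of the changes as large as the largest seen at these genes, so the lack of a call does not show that a gene was alike in both groups.

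Parthenotes were compared with IVF zygotes, which also hold a paternal genome. The groups differed as well in activation (strontium or sperm), in collection hours and in their separate scaling. Those differences cannot be told apart from the lack of a paternal genome. Nop58 was replicated in 35 of 57 parthenotes (61.4%) and 49 of 57 IVF zygotes (86%), with a mean lead of 4.67 ± 46.2 points in parthenotes and 24.9 ± 34.2 in IVF zygotes (SD), a difference of -20.2 ± 8.06 points (SE, unadjusted p = 0.0126, limma adjusted p = 0.215, permutation test p = 0.0092, two-sided). Nop56 was replicated in 28 of 55 parthenotes (50.9%) and 42 of 57 IVF zygotes (73.7%), a difference of -16.2 ± 8.38 points (adjusted p = 0.369). The other 6 genes differed by -6.19 points (Npm1) to 9.60 points (Ubtf), and Fbl was replicated in 20 of 55 parthenotes (36.4%) and 21 of 56 IVF zygotes (37.5%). Over the collection hours that both groups have and with hour as a block, a fit added after the data were seen, Nop58 differed by -11.8 ± 9.21 points (adjusted p = 0.771) and Fbl by -15.7 ± 9.86 points, where it differed by 4.65 ± 8.63 points over all hours. Of 19928 genes, 0.125% were called earlier and 0% later in parthenotes, and 2755 had an unadjusted p under 0.05.

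IVF zygotes were compared with zygotes of natural mating to see how fertilization in vitro relates to the natural cross. Ubtf was replicated in 30 of 57 IVF zygotes (52.6%) and 40 of 66 zygotes (60.6%), a difference of -14.7 ± 8.23 points (SE, adjusted p = 0.258), and Polr1a in 42 of 57 IVF zygotes (73.7%) and 38 of 66 zygotes (57.6%), a difference of 10.1 ± 7.74 points (adjusted p = 0.445). The other genes lay between, with Nop56 at -11.9 ± 7.48 points and Nop58 at 4.97 ± 7.43. Without embryos that failed in the quality table, the low end moved to Ncl at -18.8 points (limma adjusted p = 0.116). Rrn3 was then at -17.3 and Ubtf at -15.1 points, where Ncl and Rrn3 were at -8.67 and -10.3 with all embryos. Here 11% of 19934 genes were called later and 0.391% earlier in IVF zygotes, and the 8 genes were not among them. Hours were counted from insemination in IVF zygotes and from hCG in zygotes, a difference in timing that cannot be told apart from the origin of the embryo.

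Maternal were compared with paternal pronuclei to separate the parental genomes of the zygote. Per the methods both pronuclei of a zygote were collected, so these samples are not all of separate embryos, and the labels do not state which belong together. Fbl was replicated in 7 of 21 maternal (33.3%, 14.6 to 57%) and 8 of 16 paternal pronuclei (50%, 24.7 to 75.3%), a difference of -18.2 ± 14.7 points (SE), and Rrn3 in 13 of 21 maternal (61.9%) and 14 of 17 paternal pronuclei (82.4%), a difference of -22.2 ± 14.4 points. Of the 8 genes, 6 had a lower mean lead in maternal pronuclei and 2, Nop58 and Npm1, a higher one, with an adjusted p of 0.992 for each. No gene of 19900 was called in either direction (0% earlier and 0% later), with 983 at an unadjusted p under 0.05, and on simulated data of this size none of the changes put in was recovered, so the count of 0 does not show that the pronuclei were alike.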

How the data were processed

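Replication states of 733 cells in 14 groups were used, of 1016 labelled samples (283 have no column here). The authors' deposited values are of another kind than counts or ratios, a state of 1 (replicated), 0 (not replicated) or missing per 50 kb bin, 49264 bins on chromosomes 1 to 19 of GRCm38 (mm10). Per the methods, reads were aligned with Bowtie2 2.3.5, filtered with SAMtools 1.9 and counted with bedtools 2.29.0. Read numbers per bin were scaled to library size and to the mean of that bin within the stage. Outlying bins were masked, medians were taken along windows of 15 bins, and the profile was segmented and divided into both states by a mixture model, with no G1 control cells. Smoothing makes neighbouring bins alike, and the bin scaling removes what all cells of a stage have in common.

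Cells with a score of 10 to 90% were kept, 714 in all, and no columns were identical. Group sizes, from 17 to 70 cells, set the precision of a share. Gene positions were those of GENCODE vM21. Shares, leads and ranks were computed in Python 3.11.15 (NumPy 2.4.6, pandas 2.3.3, SciPy 1.17.1, Matplotlib 3.10.9), and embryos were tested in R 4.3.3 with limma 3.58.1, for genes with 10 or more embryos per group. The limma step was tested on simulated data. Stage and treatment comparisons have no test. Named are the 8 genes, for each the gene of another chromosome most often in its state, and in each comparison the 2 highest and 2 lowest of the wider list. The members, lists and tests were chosen with earlier results of these data known. Alternatives were RT averaged over 16 score intervals, windows of 0.3 Mb, scores of 20 to 80%, cells kept by the study's quality table, single hours left out and other sets of hours.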

Additional observations from a re-analysis of the deposited data

How the results depend on the processing

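Of the 5 comparisons of pooled cells, those of morula with 2-cell embryos and of ICM with morula kept the direction of all 8 genes under every alternative. The median difference in lead of the 8 ranged from 16.2 to 21.9 points for morula minus 2-cell and from -21.3 to -11.5 points for ICM minus morula. For 2-cell α-amanitin minus 2-cell it ranged from -20.03 to 3.73 points as single hours were left out, for 2-cell DRB minus 2-cell from -5.37 to 1.56, and for 2-cell Kdm5b minus 2-cell from -9.86 to -1.74, and with 26 to 52 cells a side the intervals of single shares are wider than most of these differences. For parthenotes minus IVF zygotes, 25 genes were called, against 9 with the score and its square as covariates, 194 over windows of 0.3 Mb, 43 with scores of 20 to 80%, 1 with embryos kept by the quality table, 5 with the hours both groups have and 8 with hour as a block, a fit added after the data were seen. For IVF zygotes minus zygotes, 2280 genes were called, and 1414 with scores of 20 to 80%. The alternative fits numbered 6 for parthenotes minus IVF zygotes, 4 for IVF zygotes minus zygotes and 6 for the pronuclei. None of the 8 genes was called in them, 128 results counted gene by gene (lowest limma adjusted p 0.0877, Nop58).

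The methods state that both pronuclei of a zygote were collected, but not that a shared number in the titles marks them. Of 10 such pairs, 1 correlated above 0.1 across genes (median r 0.012) and 2 maternal pronuclei correlated best with their own number. With that number as a replicate block, 0 genes were called, as without the block (0), and Fbl differed by -30.2 ± 20.8 points with the block and by -31.8 ± 20.5 points without it over the same pronuclei, and Ubtf by 13.1 points in both, where it differed by -17.7 points over all pronuclei.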
